A study of Mus musculus with 8 samples.

Results

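The genes for 9 subunits of voltage-gated sodium channels were followed in dorsal root ganglia of naive mice and of mice whose hind paw had been injected with carrageenan. They are Scn1a, Scn3a, Scn7a, Scn8a, Scn9a, Scn10a, Scn11a, Scn2b and Scn4b, and were taken by symbol from the deposited table, which holds 24421 genes. The labels give all mice as C57BL/6J animals of 8 weeks, where the study's methods state males with an age range that begins at 8 weeks, and no transgene or deletion was involved. The 3 injected groups had received 20 µL of 1% carrageenan, a seaweed polysaccharide that causes local inflammation, in the left hind paw and were sampled after 1, 3 or 30 days (1d, 3d and 30d). The baseline group (0d) was naive and untreated, so no group had a vehicle injection, and carrageenan, the injection itself and handling cannot be told apart. Each library was made from ganglia L3 to L5 of the left side, pooled from 2 to 3 mice, and each time point had 2 libraries.

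Voltage-gated sodium channels open when the membrane depolarizes and carry the rising phase of the action potential. Each channel is built from a large alpha subunit, which forms the pore, and smaller beta subunits, which change its gating and help place it in the membrane. Sensory neurons of the dorsal root ganglion carry several alpha subunits side by side. Scn10a (Nav1.8) and Scn11a (Nav1.9) encode tetrodotoxin-resistant channels of mostly small, pain-sensing neurons, and Scn9a (Nav1.7) encodes a channel whose loss in humans abolishes pain. Carrageenan in the paw is a standard model of inflammatory pain, and the time course asks how expression in the ganglia changes in the early and the late response.

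The libraries held 44123208 to 73580338 counted fragments, and the raw counts of the 9 genes lay between 260 and 88920. The lowest were those of Scn3a, with 260 to 477 counts, for which counting error was not small beside the spread between pools. The labels call the cells neurons, but the RNA came from whole ganglia. All 9 pan-neuronal markers were detected, with a summed level of 9114 to 9871 CPM (counts scaled to a common library size, with TMM as the correction for library composition). Markers of 7 non-neuronal cell types were detected as well. The 5 genes of satellite glia summed to 1200.2 to 1321 CPM and the 7 genes of Schwann cells to 5457 to 10816 CPM, the lowest in 30d replicate 1 and the highest in 0d replicate 1. The 2 libraries of 30d differed more from each other than those of other time points, with an SD of the gene-wise log2 ratio of 0.641 against 0.362 to 0.441. Those of 3d were the closest to each other (0.362), and the pairwise calls of the 9 genes given below all involve 3d. In such tissue RNA, fewer cells of a type and less RNA per cell cannot be told apart.

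Levels were first compared between genes, per kilobase of the exon length given in the table. Scn10a had the highest mean level of the 9 genes, with 176 CPM per kb over the 8 libraries (range 159 to 192). It was followed by Scn4b, which encodes a beta subunit disulfide-linked to the pore, with 113 CPM per kb (range 103 to 130), and by Scn11a with 94.0 CPM per kb (range 87.5 to 100.4). The ranges of these 3 genes over the 8 libraries did not overlap. The distance between Scn4b and Scn11a depended on the length used, since the longest GENCODE transcript of Scn4b is longer than the exons in the table and gave 96.5 CPM per kb, against 92.9 CPM per kb for Scn11a.

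Scn7a, which encodes the atypical sodium-sensing channel Nax, followed with 63.8 CPM per kb, and Scn9a had 43.8 CPM per kb. Scn8a (Nav1.6, the main channel of nodes of Ranvier) had 27.0 CPM per kb and Scn1a (Nav1.1) 20.4 CPM per kb. Neighbours among these 4 genes did not overlap in range either. Scn2b, the second beta subunit gene of the set, had 12.6 CPM per kb. Scn3a (Nav1.3), known mainly from the embryonic nervous system and from injured neurons, was lowest with 0.698 CPM per kb (range 0.620 to 0.798).

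**Figure D1:**
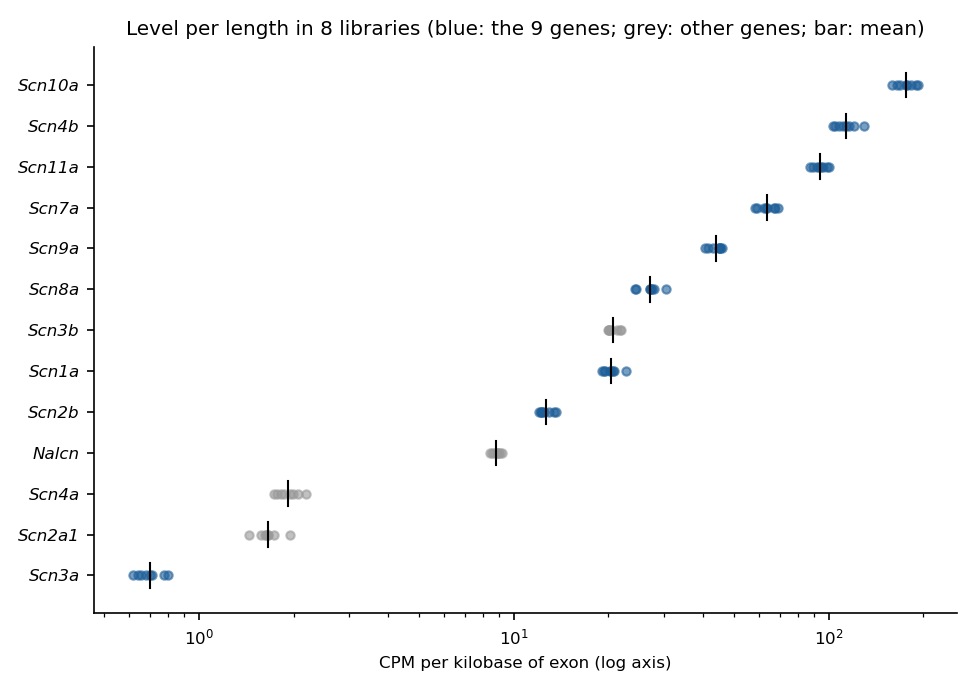
Level of 13 genes in the 8 libraries, in CPM per kilobase of exon on a log axis, with 1 point per library and a bar at the mean. The 9 genes described here are blue and 4 related genes grey, and Scn10a at a mean of 176 CPM per kb lies far above Scn3a at 0.698 CPM per kb.

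Among 4 related genes outside the set, Scn3b, which encodes another beta subunit, had 20.7 CPM per kb, and its range of 20.0 to 21.8 CPM per kb overlapped that of Scn1a. The leak channel gene Nalcn had 8.82 CPM per kb. The skeletal muscle channel gene Scn4a had 1.92 CPM per kb, and Scn2a (listed in the table as Scn2a1) had 1.66 CPM per kb. Of the summed level of 9 alpha subunit genes (the 7 of the set, Scn2a and Scn4a), Scn10a made up 38.9% to 43.2% and Scn11a 20.6% to 22.6% across libraries, so that both together accounted for 59.6% to 64.6%.

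Scn10a was the only one of the 9 genes called different from baseline after injection, at 3d. Its level was 1020.4 and 1082 CPM in the 0d libraries, 1175 and 1138 CPM in those of 1d, 1233 and 1216 CPM in those of 3d, and 1131 and 1061 CPM in those of 30d. Both 3d libraries lay above all others, both 1d libraries lay above both 0d libraries, and 30d overlapped 0d. The fitted change at 3d against 0d was a log2 fold change of 0.22 (SE 0.04, 95% interval 0.13 to 0.31), or 16.5% more, with an adjusted p of 0.0499 in edgeR's quasi-likelihood test over 17328 genes. This was 1 of 9 genes, where 0.219% of all tested genes were called.

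That adjusted p lay just under the threshold of 0.05, and the call was kept in 4 of 13 other settings of the analysis, with a change between 0.20 and 0.22 in all of them. It was also lost when 0d replicate 1 (adjusted p = 0.256 in edgeR), 1d replicate 1 (0.0643), 1d replicate 2 (0.0632), 3d replicate 1 (0.989) or 3d replicate 2 (0.655) was left out, with changes of 0.18 to 0.26 over all 8 omissions. At 1d the change of Scn10a was 0.14 (SE 0.04, adjusted p = 0.518), and at 30d it was 0.06 (SE 0.04, adjusted p = 0.584), or 0.01 with the trend with gene length removed. From 3d to 30d the value was -0.16 (SE 0.04, adjusted p = 0.103), and DESeq2 and the fit without a filter on low counts put this difference past the threshold (adjusted p = 0.0231 and 0.0226).

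Scn4b was the other gene with a call, between 3d and 30d. It measured 492 and 459.7 CPM in the 0d libraries, 480.4 and 470.3 CPM in those of 1d, 438 and 446 CPM in those of 3d, and 510.2 and 549.9 CPM in those of 30d. Both 3d libraries lay below all others and both 30d libraries above all others. The level was 20.0% higher at 30d than at 3d, a log2 fold change of 0.26 (SE 0.05, 95% interval 0.17 to 0.36) with an adjusted p of 0.0128 in edgeR, in a comparison where 0.935% of all tested genes were called.

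The Scn4b call was kept in 11 of 13 other settings and was lost when a trend with gene length or with GC content was removed (adjusted p = 0.0730 and 0.0937). It was also lost without 3d replicate 1 (adjusted p = 0.333 in edgeR), without 3d replicate 2 (0.198) and without 30d replicate 2 (0.0802). Neither side of this difference was called against baseline. Against 0d, Scn4b had a value of -0.11 at 3d (SE 0.05, adjusted p = 0.758) and 0.16 at 30d (SE 0.05, adjusted p = 0.192). Leaving out 1 library gave -0.15 to -0.06 at 3d and 0.10 to 0.21 at 30d. In the test for any difference among the 4 time points, Scn4b had an adjusted p of 0.0436 in edgeR and Scn10a 0.0587, where 1.02% of all genes were called. That call of Scn4b was kept in 5 of 12 settings.

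**Figure D2:**
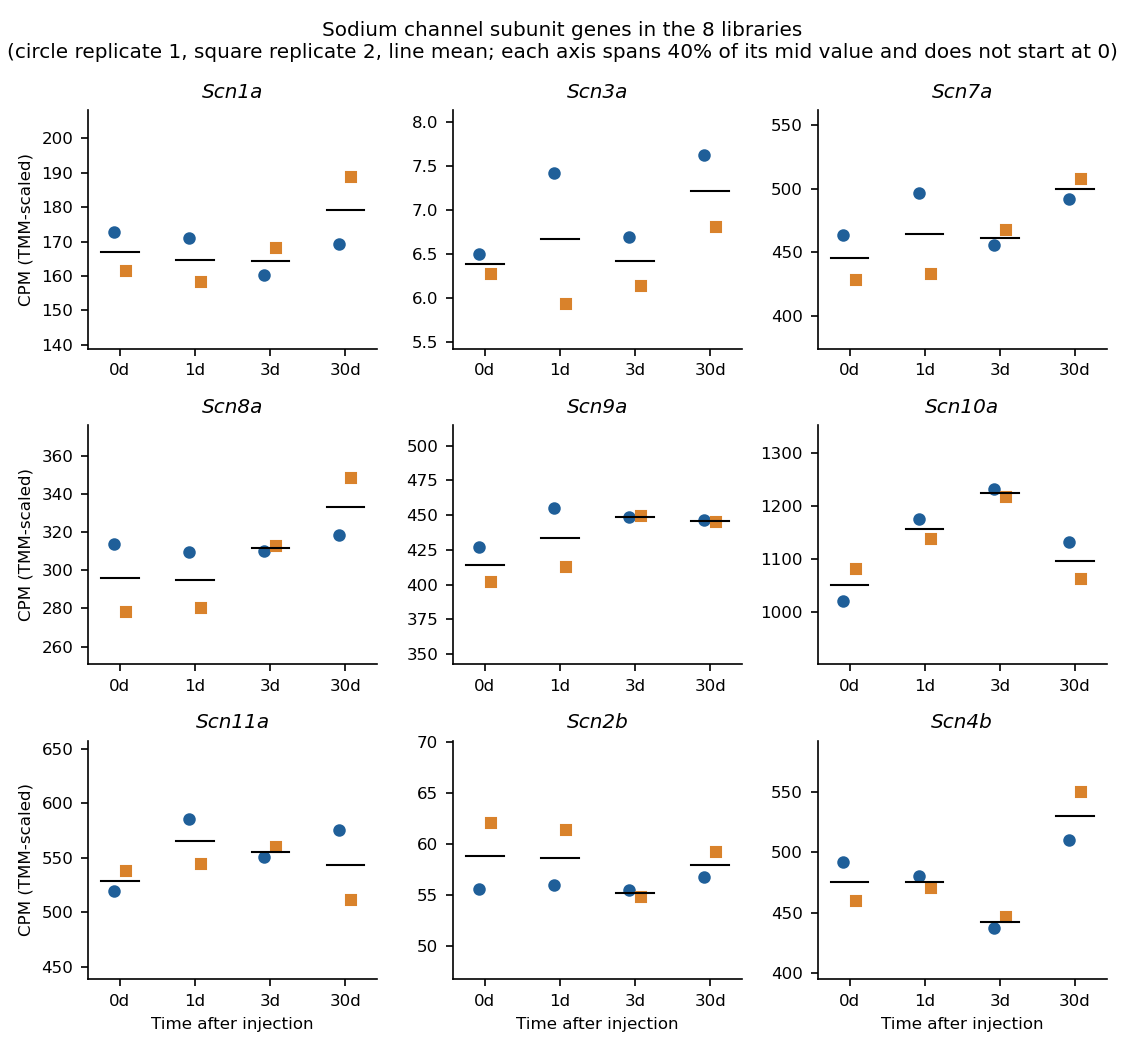
CPM of the 9 genes in each library by time point, with circles for replicate 1, squares for replicate 2 and lines for the mean. Each vertical axis spans 40% of its middle value and does not start at 0, and Scn10a peaks at 3d (1233 and 1216 CPM) where Scn4b is lowest (438 and 446 CPM).

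Scn10a and Scn4b lie on chromosome 9 in mm10, apart from each other. Scn10a (chr9:119608456-119719032, minus strand) is followed by Scn11a (chr9:119753765-119825456, minus strand), and Scn2b (chr9:45117876-45130070) by Scn4b (chr9:45139042-45154061), both on the plus strand. The 250 bases before the start are shown for Scn10a and Scn4b, the 2 genes with a call, and for Scn11a, the neighbour of Scn10a without one. They come from RefSeq promoter windows of GRCm38.p6, which held a window for 8 of the 9 genes, and each is written 5′ to 3′ on the strand of its gene. Capitals mark matches on either strand to the TATA box letters TATAAA, to the GC box letters GGGCGG and to the letters TGACG.
Scn10a (chr9:119719033-119719282): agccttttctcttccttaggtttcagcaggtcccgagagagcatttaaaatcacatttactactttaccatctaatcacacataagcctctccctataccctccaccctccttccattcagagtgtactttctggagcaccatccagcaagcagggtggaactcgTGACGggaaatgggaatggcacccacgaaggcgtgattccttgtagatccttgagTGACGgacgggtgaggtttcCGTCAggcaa
Scn11a (chr9:119825457-119825706): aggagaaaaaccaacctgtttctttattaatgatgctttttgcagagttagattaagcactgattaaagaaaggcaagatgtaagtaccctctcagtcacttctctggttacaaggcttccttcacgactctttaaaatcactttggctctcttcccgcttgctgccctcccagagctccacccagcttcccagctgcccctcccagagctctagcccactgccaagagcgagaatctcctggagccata
Scn4b (chr9:45138374-45138623): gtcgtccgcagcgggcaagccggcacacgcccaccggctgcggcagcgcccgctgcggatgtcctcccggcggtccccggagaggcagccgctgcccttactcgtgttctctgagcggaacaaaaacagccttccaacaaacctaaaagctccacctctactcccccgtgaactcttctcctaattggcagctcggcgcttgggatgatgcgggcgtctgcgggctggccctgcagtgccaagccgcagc

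The Scn10a window held 3 matches to TGACG, which is a part of the cyclic AMP response element and not the whole of it. Of all 32851 windows, 17.8% held at least 1 such match and 0.688% held 3 or more, a limit chosen after the count in Scn10a had been seen. None of the other 7 windows of the set held this motif, and the only other capital match in the 8 windows was a GGGCGG in that of Scn7a. The E-box CANNTG was searched as well, had no match for Scn10a and Scn4b and 1 for Scn11a, and occurred in 66.2% of all windows. The Scn4b window starts from an annotated site 418 bases away from the start in the table. A match to letters is a description and does not show a binding site.

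Scn11a and Scn9a, the other alpha subunits of pain-sensing neurons, had no call in any comparison. Scn11a measured 519.7 and 538 CPM in the 0d libraries, 586 and 545 CPM in those of 1d, 551 and 559.7 CPM in those of 3d, and 576 and 511 CPM in those of 30d. The libraries of 1d and 3d lay above those of 0d and those of 30d did not, with values of 0.10 (SE 0.05, adjusted p = 1.000), 0.07 (SE 0.05, adjusted p = 0.986) and 0.04 (SE 0.05, adjusted p = 0.803) in edgeR. The 30d value was -0.01 with the trend with gene length removed and -0.05 without 30d replicate 1. Leaving out 1 library gave 0.04 to 0.15 for Scn11a at 1d and 0.05 to 0.10 at 3d. Scn9a measured 427 and 402 CPM in the 0d libraries, 455 and 413 CPM in those of 1d, 448 and 449.6 CPM in those of 3d, and 446 and 445 CPM in those of 30d. Its libraries of 3d and 30d lay above those of 0d, with 0.12 (SE 0.05, adjusted p = 0.731) and 0.10 (SE 0.05, adjusted p = 0.391). With the trend with gene length removed, the 30d value fell to 0.03, and without 0d replicate 2 it was 0.06. For Scn9a at 3d, leaving out 1 library gave 0.07 to 0.16. The 95% interval at 3d, not adjusted for the number of genes, ran from 1.02% to 16.2% more for Scn9a and from 3.02% less to 13.8% more for Scn11a.

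Scn8a, Scn1a, Scn7a and Scn3a carry the remaining alpha subunits. Scn8a measured 314 and 278 CPM in the 0d libraries, 309.8 and 280.4 CPM in those of 1d, 310.3 and 313 CPM in those of 3d, and 318 and 349 CPM in those of 30d. Scn7a measured 463 and 429 CPM in the 0d libraries, 496 and 433 CPM in those of 1d, 456 and 467 CPM in those of 3d, and 492 and 507 CPM in those of 30d. For both genes the 30d libraries lay above those of 0d, by 0.17 (SE 0.07, adjusted p = 0.333) for Scn8a and 0.16 (SE 0.06, adjusted p = 0.289) for Scn7a, neither past the threshold. With the trend with gene length removed these values were 0.09 for Scn8a and 0.11 for Scn7a. Leaving out 1 library gave 0.09 (without 0d replicate 2) to 0.26 (without 0d replicate 1) for Scn8a, and 0.11 to 0.22 for Scn7a without the same libraries. Scn1a lay between 158 and 189 CPM in the 8 libraries, and Scn3a between 5.93 and 7.63 CPM. Scn3a had the widest interval at 30d against 0d, from 10.4% less to 42.4% more.

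Scn2b, the partner of alpha subunits that sits next to Scn4b in the genome, lay between 54.8 and 62.1 CPM. Its 3d libraries, with 55.5 and 54.8 CPM, were just below those of 0d, with 55.6 and 62.1 CPM, a value of -0.09 (SE 0.07, adjusted p = 0.980 in edgeR). Leaving out 1 library gave -0.17 to -0.01.

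Of the 9 genes, 0 were called by edgeR at 1d or 30d against 0d, where 0.346% and 0.0231% of all genes were, and 0 at 3d or 30d against 1d, where 0.289% and 0.571% were. At an unadjusted p under 0.05 there were 1, 4, 1 and 2 genes in these comparisons, and 4.47%, 12.3%, 4.24% and 11.7% of all genes. DESeq2 called 0 of the 9 in each of these 4. The comparisons with 0d share the same 2 baseline libraries, so their values are not independent. At 30d, 8 of the 9 genes were above 0 with a median of 0.10, and 5 of 9 had both libraries above both of 0d, where 49.9% and 19.4% of all genes did. The size of these 30d values depended on the processing, since with the trend with gene length removed 7 of the 9 were above 0 with a median of 0.04, and leaving out 1 library gave medians of 0.09 to 0.15. At 3d, 3 genes had both libraries above those of 0d (Scn9a, Scn10a and Scn11a) and 2 below (Scn2b and Scn4b), where 39.5% of all genes lay apart in either direction.

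**Figure D3:**
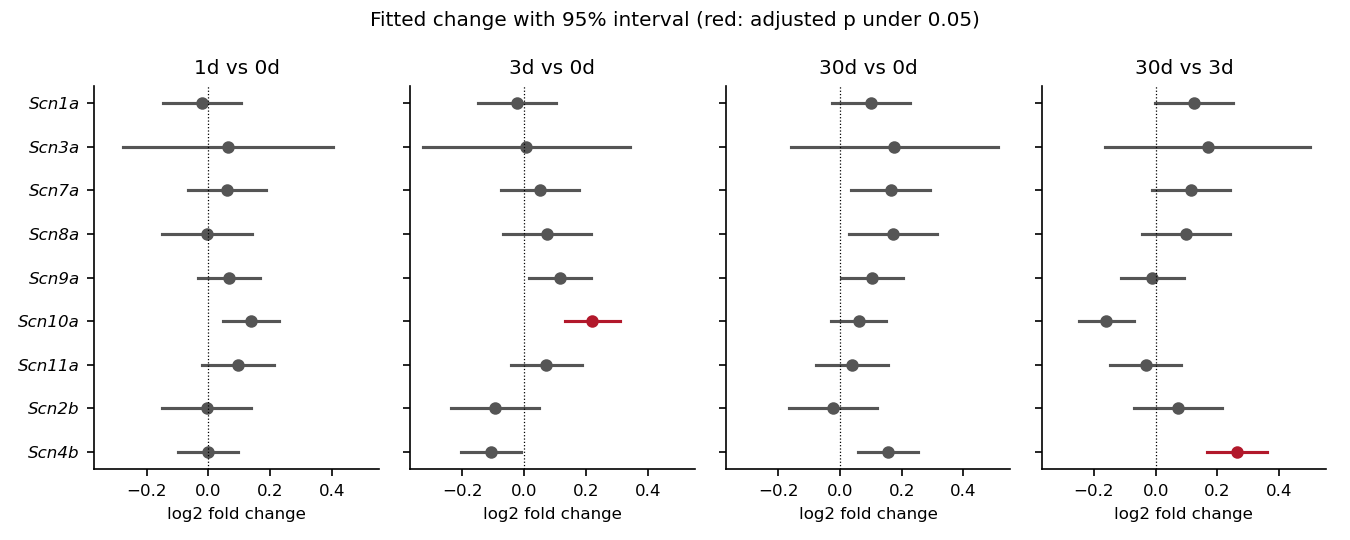
Fitted log2 fold change of each gene with its 95% interval, not adjusted for the number of genes, in 4 comparisons. Red marks an adjusted p under 0.05, reached by Scn10a at 3d against 0d (0.22) and Scn4b at 30d against 3d (0.26).

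The summed level of the 7 alpha subunits of the set with Scn2a and Scn4a was 407 ± 0.417 CPM per kb in the 0d libraries, 434 ± 21.1 in those of 1d, 445 ± 1.03 in those of 3d and 432 ± 10.8 in those of 30d (SD, n = 2). Scn10a accounted for 40.2% ± 1.61 of it at 0d and 42.8% ± 0.500 at 3d (SD, n = 2). No test was run on these sums. With 2 libraries against 2, an exact permutation test of a single value cannot give a p below 0.333.

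Markers of neuron types are given beside the 2 calls. Of 13 nociceptor markers, 10 were above 0 at 3d against 0d and 1 was called, where 49.2% of all tested genes were above 0 and 0.219% were called. The called gene was Calca, which encodes the peptide CGRP, at 0.32 (adjusted p = 0.0237 in edgeR). DESeq2 called Calca and Trpa1, where it called 109 genes in all against 38 in edgeR. The summed level of the 13 was 3354 and 3627 CPM at 0d and 3565.5 and 3717 CPM at 1d. It was 3872 and 3835 CPM at 3d and 3377 and 3180.1 CPM at 30d, with both 3d sums above the rest. Much of the rise came from Calca, with 798 and 892 CPM at 0d and 1039 and 1076 CPM at 3d. Both 3d libraries lay above both of 0d for 6 of the 13 and below for 2. Against 0d, 10 of the 13 were above 0 at 1d and 3 at 30d, where 48.8% and 49.9% of all genes were. The median at 30d was -0.08, where Scn10a was at 0.06. From 3d to 30d, 4 of the 13 were called lower, Calca (-0.43), Tac1 (-0.28), Ret (-0.22) and Trpa1 (-0.37), where 0.727% of all genes were, and 2 of 13 were above 0, where 50.1% of all genes were. In that comparison limma-voom called the same 4, and DESeq2 called P2rx3 as well. There DESeq2 called 378 genes in all and limma-voom 172, against 162 in edgeR. At 3d against 1d, DESeq2 called Calca and Tac1, and edgeR and limma-voom called 0 of the 13, of which 3 had an unadjusted p under 0.05, where 4.24% of all genes passed that limit and DESeq2 called 110 genes in all against 50 in edgeR. Against 1d, Trpa1 was also called lower at 30d (-0.26, adjusted p = 0.0477 in edgeR), where 0.514% of all genes were. That call was kept in 7 of 13 settings and lost without any 1 of the 1d or 3d libraries or without 30d replicate 2. In that comparison 0 of the 13 were above 0, where 50.7% of all genes were, and 5 had an unadjusted p under 0.05, where 11.7% did. At 30d against 3d, the calls of Calca and Trpa1 were kept in 13 of 13 settings, that of Tac1 in 11 and that of Ret in only 6 (adjusted p up to 0.0911). Tac1, Ret and Trpa1 lost that call when either 3d library was left out, Ret also without either 1d library or 30d replicate 2, and Calca lost its call at 3d against 0d, kept in 11 of 13 settings, without 0d replicate 1 or either 3d library. Of 9 markers of large-diameter neurons, 1 was above 0 at 3d against 0d and 6 at 30d against 3d, where 49.2% and 50.1% of all genes were. Their median at 30d against 3d was 0.007, where Scn4b was at 0.26. At 1d and at 30d against 0d, 1 of the 9 was above 0, where 48.8% and 49.9% of all genes were. The median at 30d against 0d was -0.05, where Scn4b was at 0.16. At 3d against 0d, 1 was called, the parvalbumin gene Pvalb at -0.33 (adjusted p = 0.0237 in edgeR). At 30d against 3d, edgeR and limma-voom called 0 of the 9, DESeq2 called Pvalb, and 3 had an unadjusted p under 0.05. The Pvalb call at 3d against 0d was kept in 10 of 13 settings and was lost without any 1 of the 0d or 3d libraries. Of the 9 pan-neuronal markers, edgeR called 0 in each pairwise comparison, with 2 at an unadjusted p under 0.05 at 3d against 0d and 2 at 30d against 3d, where 5.94% and 13% of all genes passed that limit. At 30d against 3d, DESeq2 called Snap25 and Tubb3, of 378 genes it called in all, and limma-voom called Tubb3, of 172. The part of these neuron types in the values of Scn10a and Scn4b was not tested.

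**Figure D4:**
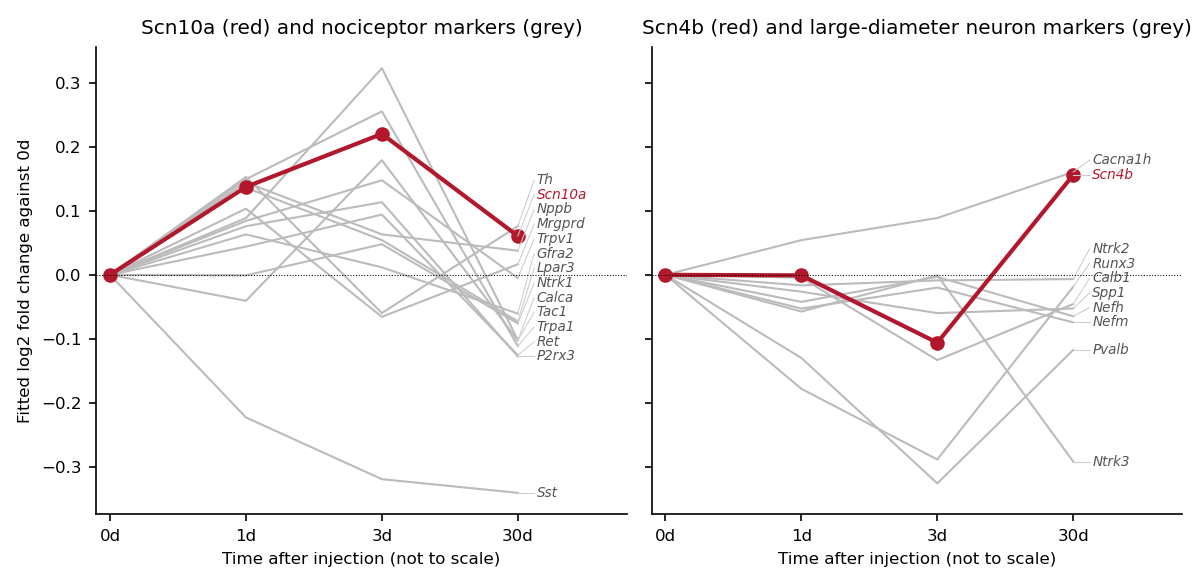
Fitted log2 fold change against 0d at each time point for Scn10a with 13 nociceptor markers and for Scn4b with 9 markers of large-diameter neurons. Time is not to scale, all values share the 0d libraries, and Scn10a is highest at 3d (0.22) while Scn4b is at -0.11 at 3d and 0.16 at 30d.

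None of the 4 related genes was called in any comparison by edgeR, DESeq2 or limma-voom, where edgeR called 0.0231% to 0.935% of all genes in the pairwise comparisons. Scn2a had the largest value among them at 30d against 0d, with 0.28 (SE 0.11, adjusted p = 0.305 in edgeR), and was the only one of the 4 with an unadjusted p under 0.05 there. Of 35 genes for partners and regulators of sodium channels, such as ankyrins, intracellular FGFs and contactins, edgeR called 0 in each pairwise comparison. At an unadjusted p under 0.05 there were 1, 3 and 7 of the 35 at 1d, 3d and 30d against 0d, and 4.47%, 5.94% and 12.3% of all genes. The smallest p-values belonged to Pdzd2 (-0.19) and Fgf11 (-0.17) at 1d, to Pdzd2 (-0.23) and Mapk14 (0.17) at 3d, and to the kinesin gene Kif5a (0.13, SE 0.04, adjusted p = 0.170) and the ankyrin gene Ank2 (0.22, SE 0.06, adjusted p = 0.188) at 30d. Single libraries weighed on the 1d values. Fgf11 had 23.9 and 18.5 CPM at 1d and 23.6 and 24.1 CPM at 0d. Pdzd2 had 115.7 and 109.9 CPM at 1d and 141.6 and 116.4 CPM at 0d. DESeq2 called Kif5a and Ank2 at 30d against 0d, where it called 184 genes in all against 4 in edgeR, and none of the 35 in the other pairwise comparisons, and limma-voom called none.

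The pattern over the 8 libraries was compared between genes by the root mean square difference of standardized log2 CPM. Among 10397 genes with a mean of at least 10 CPM, Cry1 (0.252) was nearest to Scn10a, and Kndc1 (0.180) and Sv2b (0.198) to Scn4b. Scn8a was nearest to Cdc42bpa (0.106) and Nrbp2 (0.190), Scn7a to Col24a1 (0.156) and 2010111I01Rik (0.158), and Scn1a to Slc35a3 (0.202) and Ppp1r9a (0.211). Scn9a was nearest to Ddx46 (0.214) and the mechanosensory channel gene Piezo2 (0.225), Scn11a to Cfap97 (0.285) and Mapk7 (0.352), Scn2b to Rab22a (0.222) and Cox17 (0.315), and Scn3a to Inppl1 (0.303) and Hnrnpm (0.304). Within the set, Scn7a and Scn8a were closest (0.441), and Scn9a and Scn2b (1.77) and Scn10a and Scn4b (1.70) were farthest apart. These are descriptions of 8 libraries and carry no test.

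Scn3a, Scn2a, Scn1a, Scn9a and Scn7a form a cluster on chromosome 2. Of the 50-base words of the longest transcript, 5.56% in Scn3a and 3.65% in Scn1a also occurred in Scn2a and 4.15% of Scn9a in Scn3a, while Scn7a shared none with another gene. Reads confined to such stretches map to several places and were not counted. Exons of Scn9a overlapped those of the counted gene Gm13629 over 3.21% of their length, and counting ignored strand. Counts per gene do not separate isoforms.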

How the data were processed

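Total RNA from L3 to L5 dorsal root ganglia was sequenced in 8 libraries, 2 for each of 4 time points. Per the labels and the study's methods, the authors used cutadapt 2.10 for trimming and STAR 2.7.5a for alignment to mm10, and counted fragments over exons of UCSC genes with featureCounts 2.0.1, without strand, giving a pair to every gene it overlapped. The deposited values are raw counts per gene, and all 8 columns were matched to samples by name.

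From these counts, 17328 of 24421 genes, all 9 sodium channel subunit genes among them, passed filterByExpr in edgeR 4.0.16 (R 4.3.3). Libraries were scaled by TMM (factors 0.993 to 1.01) and entered 1 model in which time was the sole factor, by the quasi-likelihood method with robust estimation. The 6 pairwise comparisons and a joint test of all 4 time points were adjusted by the Benjamini-Hochberg method over all tested genes, with a threshold of 0.05. SE was obtained from the log2 fold change and its F statistic. The common biological coefficient of variation was 8.85%. Totals were 44123208 to 73580338 counts, and p-values measure the spread between pools of mice. The fit was tested on simulated counts.

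The genes, the lists and the settings were chosen with earlier results of these data known. The text names the 9 genes, 4 related genes, called genes of the lists, the 2 partner genes of smallest p in each comparison with 0d, and for each of the 9 the 2 genes of most similar pattern. Results for some genes that this rule names are not reported here, and counts over lists and sums leave those genes out. The lists cover 35 partners and regulators and markers of pan-neuronal genes, nociceptors, large-diameter neurons, satellite glia, Schwann cells, macrophages, skeletal muscle, red blood cells, endothelial cells and fibroblasts. Alternatives were DESeq2 1.42.0 and its size factors, limma-voom (3.58.1), other filters and quasi-likelihood settings, the compared groups alone, a replicate block, removal of length or GC trends (5 degrees of freedom, GC known for 96.01% of tested genes, the rest uncorrected), and each library left out. Promoter windows and gene models were of GRCm38.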

Additional observations from a re-analysis of the deposited data

Results flagged for a closer look

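Scn4b differed between time points after injection, tested directly as 30d against 3d in edgeR. It was higher at 30d, with a log2 fold change of 0.26 (SE 0.05, adjusted p = 0.0128). Both 30d libraries lay above both 3d libraries, as they did for 22.9% of all tested genes. Groups of 2 libraries are too small for a test of outlying samples.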

How the results depend on the processing

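Over all alternatives, 1272 of 1314 values of the 9 genes stayed on their side of the threshold, 31 lost a call, 11 gained one and 0 reversed a call. Among fold changes that had not been called, 49 of 1092 changed sign. Scn10a at 3d against 0d was not called, leaving 0 of the 9, with DESeq2 size factors (log2 fold change 0.22, adjusted p = 0.0509), limma-voom (0.22, 0.0581), a CPM of at least 1 in 2 libraries (0.22, 0.0503), the newer quasi-likelihood method (0.22, 0.0555), no robust estimation (0.22, 0.103) or removal of the length trend (0.20, 0.442) or GC trend (0.21, 0.264). Scn4b at 30d against 3d was lost, leaving 0, on removal of the length (0.24) or GC trend (0.25), while DESeq2 and no filter called 2 genes there and in the joint test of the 4 time points. In that joint test Scn4b was lost, leaving 0, under limma-voom (adjusted p = 0.0738), the newer method (0.0533), no robust estimation (0.105) and removal of the length (0.247) or GC trend (0.284). The cause was not tested.

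Leaving out each library gave 0.18 to 0.26 for Scn10a at 3d and 0 to 1 genes called, 0.21 to 0.31 for Scn4b from 3d to 30d and 0 to 2 genes, and 0 to 1 genes at 30d against 1d. In the joint test it gave 0 to 2 genes, with an adjusted p of 0.0132 to 0.387 for Scn4b. A group left with 1 library was assumed to vary like the others. With the longest GENCODE transcript the mean level was 169 CPM per kb for Scn10a and 96.5 CPM per kb for Scn4b.

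Deviations of same-numbered libraries correlated at -0.0144 to 0.0438 over all tested genes. This measure is too coarse to decide whether replicate numbers pair the samples. A block for the number raised the calls over all tested genes from 4 to 69 at 30d against 0d and from 177 to 280 in the joint test. With the number as a block, 2 of the 9 genes were called in the joint test (Scn4b at an adjusted p of 0.0359 and Scn10a at 0.0449), and in the pairwise comparisons no call of the 9 genes changed (Scn10a at 3d 0.22, adjusted p = 0.0407, Scn4b from 3d to 30d 0.26, 0.0115). Settings joining the block with a trend were chosen after seeing the data. With the length trend, Scn10a at 3d had 0.20 (adjusted p = 0.142) and Scn4b in the joint test 0.0659, leaving 0 genes in both, and with the GC trend Scn10a at 3d had 0.21 (0.0506), leaving 0, while in the joint test Scn4b was lost (0.0915) and Scn10a called (0.0484). Over all tested genes, the settings other than omissions called 49 to 110 genes at 1d against 0d (60 as reported), 20 to 121 at 3d (38), 0 to 184 at 30d (4), 43 to 260 at 3d against 1d (50), 74 to 229 at 30d against 1d (99), 92 to 378 at 30d against 3d (162) and 118 to 512 in the joint test (177). Leaving out each library, in the same order, gave 26 to 111, 1 to 121, 1 to 202, 5 to 117, 51 to 359, 12 to 525 and 51 to 401 genes. Without 3d replicate 1 or 2 these counts were 1 and 3 at 3d against 0d, 5 and 8 at 3d against 1d, and 12 and 22 at 30d against 3d, and without 30d replicate 1 or 2 they were 121 and 110 at 3d against 0d, and 525 and 143 at 30d against 3d.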

Other observations

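Of the marker lists for other cells, 5 to 8 genes each, few members were called by edgeR. Of all tested genes, 0.0173% were called lower at 1d against 0d, 0.0289% at 3d against 0d and 0.265% at 3d against 1d, and 0.208% were called higher at 30d against 3d. The macrophage gene Cx3cr1 was lower at 3d than at 0d (log2 fold change -1.02, adjusted p = 0.00794) and 1d (-0.75, adjusted p = 0.0476), the other 6 macrophage genes were not called, and the list summed to 79.5 to 94.7 CPM over the 8 libraries. The muscle myosin gene Myh1 was lower at 1d (-1.47, adjusted p = 0.0324) and 3d (-1.61, adjusted p = 0.0237) than at 0d and higher at 30d than at 3d (1.35, adjusted p = 0.0292), with the 8 muscle genes at 23.3 to 149 CPM in sum. Of 13 other settings, 9, 10 and 11 kept these 3 calls of Myh1 in that order, and limma-voom made none of them. The fibroblast gene Lum was lower at 1d (-0.49, adjusted p = 0.0326), a call kept in only 7 of 13 settings (adjusted p up to 0.124) and not made by limma-voom. The calls of Cx3cr1 were kept in 13 of 13 settings against 0d and in 10 against 1d. No gene of satellite glia, Schwann cells, red blood cells or endothelial cells was called by edgeR in any pairwise comparison, with 3 of 5 satellite glia genes at an unadjusted p under 0.05 at 3d against 0d and 2 of 5 at 30d against 3d, where 5.94% and 13% of all genes were. DESeq2 called Fasn at 3d against 0d, Kcnj10 at 30d against 0d, and Kcnj10 and the Schwann cell gene Ncmap at 30d against 3d, and limma-voom called Ncmap in the last. Over all genes, DESeq2 called 109, 184 and 378 in these comparisons, against 38, 4 and 162 in edgeR, and limma-voom called 172 in the last. The calls at 3d against 0d of Cx3cr1 and Myh1 were lost without either 3d library, that of Myh1 also without 0d replicate 1. The calls of Myh1 and Lum at 1d were lost without 0d replicate 1 or any 1 of the 1d or 3d libraries, that of Myh1 at 30d against 3d without either 3d library, and that of Cx3cr1 at 3d against 1d without any 1 library of 0d, 1d or 3d.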
